A study of Rattus norvegicus with 8 samples.

Results

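The circadian clock genes described here are Clock, Per1, Per2, Per3, Cry1, Cry2, Nr1d1, Nr1d2, Dbp and Tef, 10 of the 16667 rat genes that a probe of the array could be matched to by symbol. They were chosen by name, from their place in the molecular clock, and every non-control probe whose RefSeq accession belongs to one of them was taken. All 10 had at least 1 probe: Clock, Per1, Nr1d2 and Dbp had 2 each and the others had 1. All 10 had a probe that passed the filter on dim probes, which asks that both samples of some group give a signal well above background.

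RNA came from the lungs of male rats in 4 groups of 2 samples, each sample on its own 1-colour array. Naive rats breathed normal air, and the smoke group spent 12 weeks in a chamber with cigarette smoke. The other groups had the same smoke exposure and, at week 13, received into the trachea either about 2500000 human umbilical cord mesenchymal stem cells (hUC-MSC, here MSC) or the extracellular vesicles from that many such cells (hUC-MSC-EV, here EV). Strain and age of the rats, the interval from treatment to collection and the time of day at which the lungs were collected are not given in the sources used here. Nothing in the labels states that replicates are different animals. The p-values given here thus reflect only how far replicates lie apart, which could be technical spread.

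The mammalian clock is a loop of transcription factors. CLOCK, or its relative NPAS2, pairs with BMAL1 and activates genes through the E-box, while the PER and CRY proteins made from those genes act back on the pair and repress it. In a second loop NR1D1 and NR1D2 (REV-ERBα and REV-ERBβ) repress Bmal1, Cry1 and Nfil3 through the ROR element. DBP and TEF activate genes through the D-box, and NFIL3 represses at the same element. In rodent lung, as in liver, transcripts of Dbp, Nr1d1 and Per2 rise and fall widely over the day and Bmal1 peaks at about the opposite time, whereas Clock transcripts change little.

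Sequences of these elements upstream of the clock genes are shown because they are the parts of the loop through which the members act on each other. The 250 bases before each start site in the RefSeq promoter table of build GRCr8 were searched on both strands for the E-box CACGTG, a variant E-box CACGTT, the D-box (TTATGTAA or TTATGCAA), the ROR element TAGGTCA and the cAMP response element TGACGTCA. The table held 9 of the 10 members, all but Cry1. Capitals mark the match, written as it reads on the strand of the gene.
Per2, variant E-box at position -62 (chr9:99497038-99497067, minus strand): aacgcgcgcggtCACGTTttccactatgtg
Per2, D-box at -192 (chr9:99497166-99497197, minus strand): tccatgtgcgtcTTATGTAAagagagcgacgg
Cry2, variant E-box at -212 (chr3:98860632-98860661, minus strand): acacatggtgggAACGTGagggggcggggc
Nr1d1, variant E-box at -174 of the first start site (chr10:84231969-84231998, minus strand): cgcatagagctcAACGTGcccgctgctgga
Nr1d1, E-box at -191 of the second start site (chr10:84229628-84229657, minus strand): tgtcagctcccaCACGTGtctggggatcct
Tef, E-box at -198 (chr7:115206617-115206646, plus strand): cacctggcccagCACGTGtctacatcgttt
Bmal1, ROR element at -16 (chr1:176766300-176766327, plus strand): gaaggcagaaagTAGGTCAgggacggag
In Cry2 and at the first Nr1d1 site the variant lies on the other strand. The E-box was found in 2 of the 9 members and in 5.59% of all 33469 promoters, the variant E-box in 3 members and 4.07% of promoters, and the D-box in 1 member and 1.6% of promoters. A member counts if any of its start sites holds the match, whereas the percentages are over single start sites, so the 2 are not shares of like units. Clock and Nr1d1 have 2 start sites each. The ROR element, held by 2.26% of promoters, and the cAMP response element, held by 1.59%, were in none of the 9, which says only that these letters are not in this window. Of 21 other clock genes listed, 14 were in the promoter table, and only Bmal1 is shown. The ROR element was in 1 of the 14, Bmal1, and not in Nfil3. The E-box was in 3 of the 14, the variant E-box in 1, and the D-box and the cAMP response element in 0.

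The smoke arrays were much brighter than the others. The 75th percentile of the signal was 6.49 times that of the naive arrays after smoke, 1.34 times with EV and 0.553 times with MSC, while the E1A spike-in controls, RNA added in fixed amount, were at 0.832, 0.959 and 1.15 times. A level below is therefore log2 of the signal minus the array's 75th percentile, and each direction is set beside the same difference scaled on the spike-ins. The choice of scale moved the median of all 25087 features from -0.62 to 2.34 for smoke against naive, from 0.55 to -1.94 for EV against smoke and from 0.74 to -3.28 for MSC against smoke, so differences relative to that median, which no scaling of whole arrays alters, are given as well. Markers of lung were well above background on all 8 arrays (all 5 measured genes each of alveolar type 2, alveolar type 1 and endothelial cells, and all 3 of club cells). One library stood apart: naive replicate 2 was high in liver markers, with the summed level of the 3 liver markers tested (Apoa1, Serpina1 and Ttr) at 4.04 against -3.39 in naive replicate 1 and between -3.80 and -1.42 on the other 6 arrays. On that array Alb, the gene of albumin, was at 3.52, and on naive replicate 1 it was at -6.20 and not well above background. Summed cardiac muscle markers were high on EV replicate 1 (4.53, against 1.15 on the other EV array) and MSC replicate 2 (5.62 against 1.52).

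Levels of the members on each array came first. Clock, the gene of the activator, was dim throughout: it stood at -5.79 and -5.09 in the naive samples, -6.42 and -6.04 after smoke, -5.94 and -5.61 with EV and -4.40 and -4.30 with MSC. The MSC samples were the highest, the smoke samples the lowest, and naive replicate 2 was not well above background. Its signals, before any scaling, ran from 9.86 to 13.0 in the naive, EV and MSC samples and were 37.8 and 40.7 after smoke. The other Clock probe was well above background on 1 array of each group, and so did not pass the filter.

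Per1, Per2 and Per3 encode repressors. Per1, by the brighter of its 2 probes, was at 2.57 and 4.28 in the naive samples, 2.68 and 2.98 after smoke, 3.59 and 3.46 with EV and 3.60 and 3.01 with MSC. Its highest level was on naive replicate 2 and its lowest on naive replicate 1, so that the naive range covered every other sample. Per2 was at -5.26 and -2.53 in the naive samples, -2.90 and -2.70 after smoke, -3.26 and -3.73 with EV and -6.89 and -5.41 with MSC. Both MSC samples lay below all others and neither was well above background. Per3, whose product is the least needed of the PER proteins for the rhythm, was at -3.14 and -2.33 in the naive samples, -3.72 and -3.94 after smoke, -3.23 and -2.95 with EV and -2.35 and -2.32 with MSC. Only the smoke samples lay apart from the naive ones, below them.

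Cry1 and Cry2, the genes of the cryptochrome repressors, ran in opposite orders. Cry1 was at -3.07 and -3.44 in the naive samples, -2.29 and -1.78 after smoke, -2.46 and -2.56 with EV and -2.95 and -3.90 with MSC. Smoke samples were highest, EV samples lay next, and naive and MSC samples overlapped. Cry2 was at 2.00 and 1.94 in the naive samples, 0.65 and 0.67 after smoke, 1.62 and 1.81 with EV and 2.60 and 1.92 with MSC. Both smoke samples were the lowest and the 2 agreed closely.

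In the second loop and its outputs the spread within a group was wide. Nr1d1 was at -4.67 and -1.82 in the naive samples, -2.76 and -3.73 after smoke, -3.14 and -2.70 with EV and -5.05 and -3.28 with MSC, where replicate 1 was not well above background. Nr1d2 was at 1.05 and 2.98 in the naive samples, 0.62 and 0.13 after smoke, 0.98 and 1.35 with EV and 1.08 and 1.30 with MSC. Of these genes only Nr1d2, by the brighter of its 2 probes, separated the smoke samples, the lowest, from all others. By its dimmer probe the smoke samples (-5.01 and -5.63) overlapped the naive (-5.22 and -3.52) and MSC samples (-5.26 and -4.92). Neither MSC sample was well above background by that probe. Dbp, whose product is an activator at the D-box, was at -1.21 and 1.47 in the naive samples, 0.63 and -0.89 after smoke, -0.81 and -0.63 with EV and -1.73 and -0.28 with MSC, so that all groups overlapped the naive range. Tef was at 1.68 and 2.40 in the naive samples, 1.17 and 1.29 after smoke, 1.95 and 2.27 with EV and 1.76 and 1.19 with MSC. Its EV samples lay above its smoke samples, and the MSC samples overlapped the smoke samples.

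**Figure D1:**
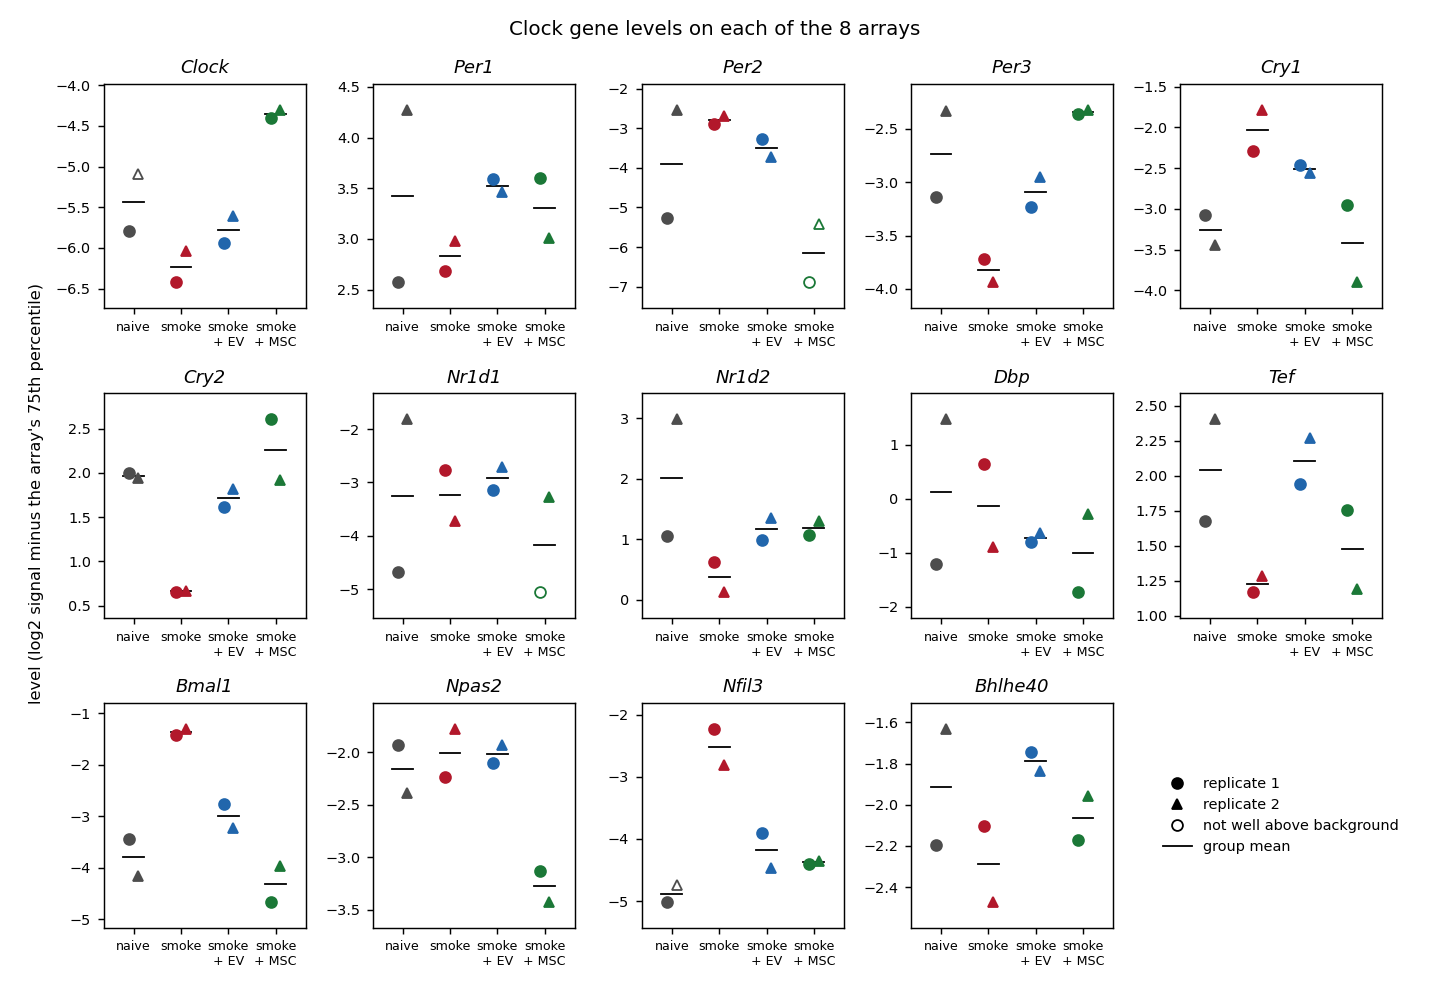
Level (log2 signal minus the array's 75th percentile, y axis, a scale of its own for each gene) of the 10 members and of Bmal1, Npas2, Nfil3 and Bhlhe40 on the 8 arrays, by group; circles are replicate 1, triangles replicate 2, open symbols are not well above background and bars are group means. Cry2 is lowest and Bmal1 highest in the 2 smoke samples, while the naive samples of Dbp, Nr1d1 and Per2 lie far apart; these orders of the groups hold on this scale, and on the spike-in scale every member is higher after smoke than in naive lung.

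In smoke-exposed against naive lung, 1 member was called higher (Cry1) and 3 lower (Cry2, Per3 and Nr1d2), against 12.1% and 35.4% of all features called higher and lower by limma at a Benjamini-Hochberg adjusted p under 0.05. Cry1 was higher by 1.22 ± 0.39 (log2, SE; n = 2 and 2; limma adjusted p = 0.0346), a 2.33-fold difference and 1.84 above the median of all features, and it was also higher on the spike-in scale, by 4.18. Cry2 was lower by 1.31 ± 0.31 (that is -1.31; limma adjusted p = 0.0125) and Nr1d2 by a log2 difference of -1.65 ± 0.58 (adjusted p = 0.0491), while Per3 differed by -1.09 ± 0.34 (adjusted p = 0.0320); on the spike-in scale these 3 turned, to 1.66, 1.32 and 1.87. Relative to the median of all features, the 3 stood at -0.69, -1.03 and -0.47, and 28.5%, 19.3% and 35.0% of features had a lower difference than Cry2, Nr1d2 and Per3. The median of the 10 members, -0.69, was close to the -0.62 of all features. In bulk tissue, fewer cells of a type and less RNA per cell cannot be told apart.

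The other 6 members were not called. Clock (-0.79 ± 0.34, limma adjusted p = 0.0859) and Tef (-0.81 ± 0.36, adjusted p = 0.0939) did not overlap between the groups but missed the threshold. Such absence of overlap was common, in 6 of the 10 members and in 79.4% of all features. Per1 differed by -0.60 ± 0.53, Per2 by 1.09 ± 0.85, Dbp by -0.26 ± 0.91 and Nr1d1 by 0.003 ± 0.94, with 95% intervals from -2.38 to 1.86 for Dbp and from -2.19 to 2.19 for Nr1d1, wide enough to hold large changes either way. The 2 probes of Per1 differed in sign, -0.60 for the brighter and 1.08 ± 0.51 for the dimmer, both uncalled; the second probes of Nr1d2 (-0.95, not called) and Dbp (-0.05) had the sign of the first.

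Several of these calls were lost when single libraries were left out. Without naive replicate 2, the array high in liver markers, Nr1d2 (-0.68), Per3 (-0.69) and Cry1 (1.03) lost their calls. Per2 was then called higher at 2.46, and Cry2 kept its call at -1.34. Without naive replicate 1, Cry1 at 1.40 lost its call, Clock (-1.14) and Per1 (-1.45) were called lower, and Nr1d2 stood at -2.61. Without either smoke array no member kept its call, with Cry2 at -1.30 and -1.31, and without either EV array Cry2 alone did. Nr1d2 also missed the threshold without either MSC array. Fits without a naive, smoke or EV array called fewer of all features too, so lost calls there are not particular to clock genes. Whether the liver markers have a part in the naive levels of clock genes was not tested.

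**Figure D2:**
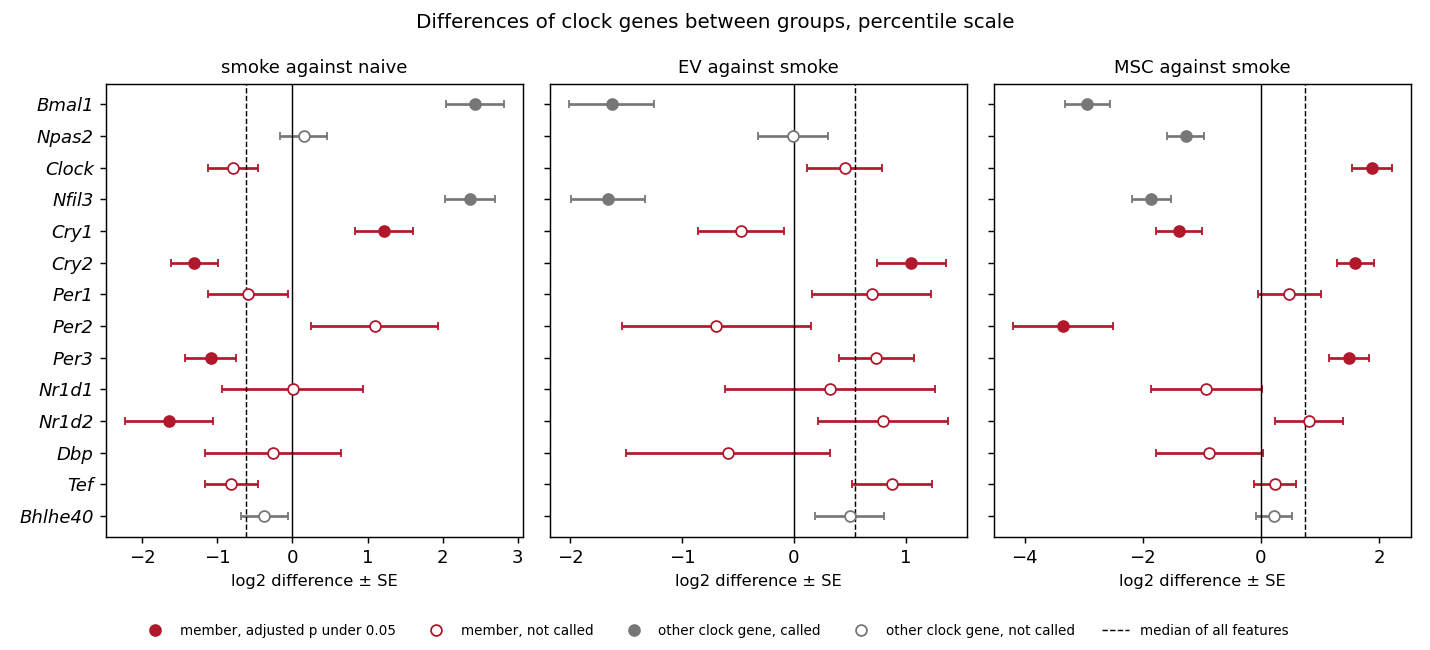
Log2 difference between group means ± SE (x axis, 75th percentile scale; 2 samples a group) for the members (red) and 4 other clock genes (grey) in smoke against naive, EV against smoke and MSC against smoke; filled points have an adjusted p under 0.05 and the dashed line is the median of all 25087 features. Bmal1 and Nfil3 lie farthest right for smoke, at 2.43 and 2.36, and left of 0 for both treatments, on either scale, whereas the members called lower after smoke turn to higher on the spike-in scale.

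The naive samples differed widely in 5 of the members. Replicate 2 exceeded replicate 1 by 2.85 for Nr1d1 (log2, 7.23-fold), by 2.73 for Per2, by 2.68 for Dbp, by 1.93 for Nr1d2 and by 1.70 for Per1. On the percentile scale the size of the difference was larger than that of 99.1%, 99.0%, 98.9%, 97.3% and 96.0% of all features, in the same order. On the spike-in scale the 5 differences were 2.11, 1.99, 1.94, 1.19 and 0.96, against a median of -0.72 over all features, and larger in size than those of 96.1%, 95.2%, 94.6%, 75.7% and 63.1% of features. Cry2 differed by -0.06 and Cry1 by -0.37 in the same pair, while Clock, Tef and Per3 differed by 0.70, 0.73 and 0.81.

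Dbp differed between replicates in the other groups too. It was lower in smoke replicate 2 than in replicate 1 by a difference of -1.52, larger in size than that of 97.2% of features, and in the same pair Nr1d1 differed by -0.97, Per2 by 0.20 and Per1 by 0.30. With MSC, replicate 2 exceeded replicate 1 by 1.46 for Dbp; no size is given for Per2, not well above background in either MSC sample, or for Nr1d1, not well above it in replicate 1. With EV the pair differed by 0.17 for Dbp, -0.46 for Per2 and 0.43 for Nr1d1. The second Dbp probe, printed at 10 spots on each array, moved likewise, from -1.20 to 1.28 in the naive pair; the SD of its log2 signal over the spots of 1 array was 0.056 to 0.087, which covers error within an array only. On the percentile scale replicate 2 differed from replicate 1 in the direction of Dbp in 4 of 4 groups for Nr1d1, Nr1d2 and Per3. It was 3 of 4 for Clock, 2 of 4 for Per2 and Tef, 1 of 4 for Per1 and Cry2, and 0 of 4 for Cry1. The counts include samples not well above background: MSC replicate 1 for Nr1d1, both MSC samples for Per2 and naive replicate 2 for Clock. The correlations below include those of Nr1d1 and Per2. These counts also depend on the scale. With spike-in scaling Per2 differed by -0.36 in the smoke pair and by -1.17 in the EV pair, where Dbp differed by -2.08 and -0.53. Over the 8 arrays Pearson's r with Dbp was 0.88 for Nr1d1, 0.66 for Per2 and 0.60 for Nr1d2 on the percentile scale. On the spike-in scale r was 0.97, 0.94 and 0.98, and it was 0.80 for Cry1 and for Cry2 (-0.22 and -0.32 on the percentile scale). These are descriptions of arrays that share their group structure.

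**Figure D3:**
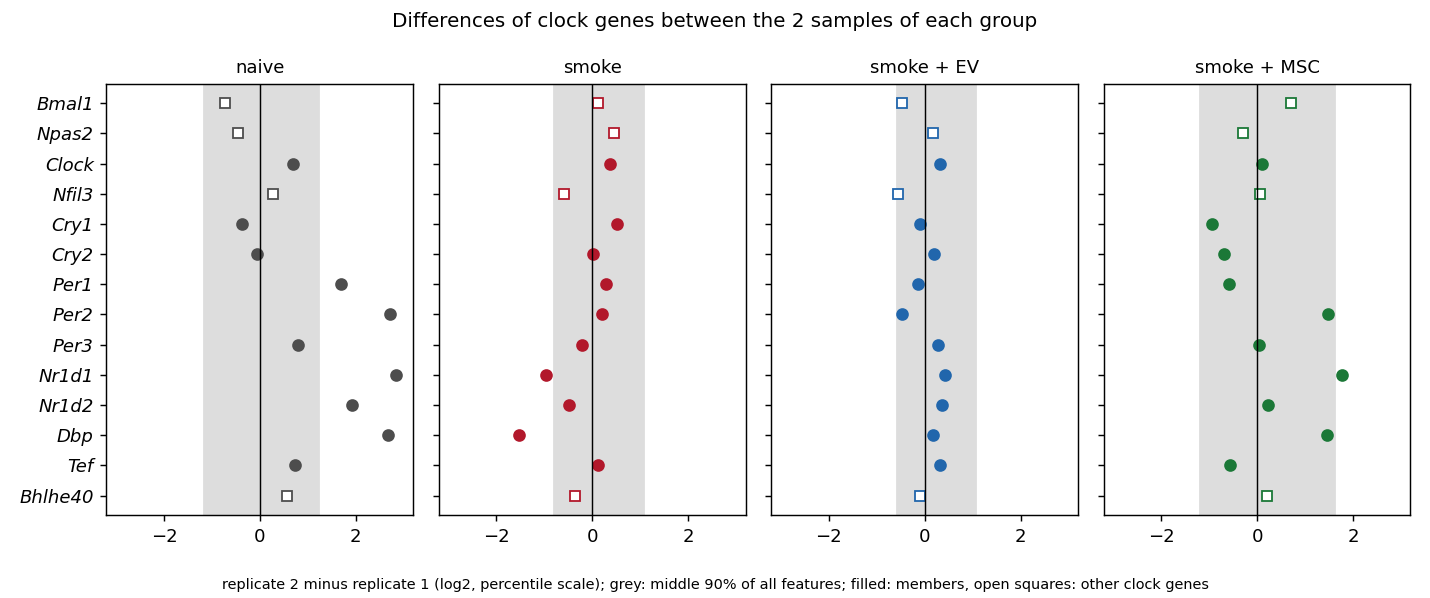
Level in replicate 2 minus that in replicate 1 (log2, x axis) of the members (filled circles) and 4 other clock genes (open squares) in each group; the grey band holds the middle 90% of all features, between their 5th and 95th percentiles. Nr1d1, Per2, Dbp, Nr1d2 and Per1 lie beyond the band in the naive pair, at 1.70 to 2.85, and Dbp and Nr1d1 lie beyond it on the other side in the smoke pair, at -1.52 and -0.97.

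This spread decided the direction after smoke of several members. Without naive replicate 2, smoke exceeded naive by 1.08 for Dbp and 1.43 for Nr1d1; without naive replicate 1 the differences were -1.60 and -1.42, and Per2 went from 2.46 to -0.27. None of these values other than the 2.46 of Per2 passed the threshold (limma adjusted p of 0.150 to 0.748). Per1 turned likewise, from 0.25 without naive replicate 2 to -1.45 without naive replicate 1. No direction after smoke can therefore be given for Dbp, Nr1d1, Per1 or Per2 on the percentile scale.

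Of 21 other clock genes listed, 17 had a probe and 13 passed the filter; no probe matched Rora, Bhlhe41 or Hlf, and Ciart was not well above background on any array. Bmal1, the partner of CLOCK, was at -3.44 and -4.16 in the naive samples, -1.43 and -1.31 after smoke, -2.76 and -3.23 with EV and -4.66 and -3.96 with MSC. The smoke samples were the highest of the 8, the EV samples lay between, and the MSC and naive samples overlapped. Smoke exceeded naive by 2.43 ± 0.38 (5.39-fold, limma adjusted p = 0.00325), and the difference was 5.39 on the log2 scale with spike-in scaling and 3.05 relative to the median of all features. Without naive replicate 2 it was 2.07 (0.0187).

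Nfil3, the repressor at the D-box, was at -5.01 and -4.75 in the naive samples, -2.23 and -2.81 after smoke, -3.91 and -4.46 with EV and -4.41 and -4.35 with MSC. Smoke samples were again the highest and naive samples the lowest, with naive replicate 2 not well above background. Smoke exceeded naive by 2.36 ± 0.33 (5.13-fold, limma adjusted p = 0.00261), by 5.32 with spike-in scaling and by 2.98 relative to the median of all features. Both genes were called higher after smoke in every alternative processing that could be run for them, 22 for Bmal1 and 21 for Nfil3. Their differences exceeded those of 97.9% and 97.6% of features. Npas2, the relative of Clock, and Bhlhe40, a repressor at the E-box, were not called, at 0.15 ± 0.31 and -0.37 ± 0.31. In all, 2 of the 13 were called higher and 5 lower on the percentile scale, beside 12.1% and 35.4% of all features. With spike-in scaling 12 were called higher, beside 82.7% of all features. Usp2 and Nampt, among the 5 and named here after their values were seen, have second probes at 2.07 and -0.02, against -1.13 and -3.15. The second probe of Btrc, also among the 5, was at -0.78 against -1.58.

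EV-treated lung was compared with smoke-exposed lung to ask what the vesicles changed, against the same 2 smoke samples that the comparison with naive lung uses. Cry2 was the 1 member called, higher by 1.05 ± 0.31 (2.07-fold, limma adjusted p = 0.0319); it was 0.50 above the median of all features, and on the spike-in scale its difference was -1.43. No member was called lower, and 29.9% of all features were called higher and 9.97% lower. The call of Cry2 was lost without either smoke or either EV array, with differences of 0.95 to 1.15, and fewer of all features were called then too. In 8 of the 10 members the 2 groups did not overlap, and so it was for 82.8% of features.

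By their brightest probes, the other members moved by less than 1 on the log2 scale. Tef was at 0.88 ± 0.36 (limma adjusted p = 0.0835), Nr1d2 at 0.80 ± 0.58, Per3 at 0.74 ± 0.34, Per1 at 0.70 ± 0.53 (-0.73 ± 0.51 by its second probe), Clock at 0.45 ± 0.34 and Nr1d1 at 0.32 ± 0.94, none called. Cry1 (-0.48 ± 0.39), Dbp (-0.59 ± 0.91) and Per2 (-0.70 ± 0.85) had the other sign, also uncalled. The second probe of Dbp was at -1.04 ± 0.83, with no overlap between the groups, and that of Nr1d2 at 0.76 ± 0.56, both uncalled. Bmal1 fell by 1.63 ± 0.38 on the log2 scale with EV (limma adjusted p = 0.0149) and Nfil3 fell by 1.66 ± 0.33 (0.00897); with spike-in scaling the differences were -4.11 and -4.15, in the same direction. Without smoke replicate 1 or EV replicate 2 both missed the threshold (Bmal1 at 0.0817 and 0.103, Nfil3 at 0.0772 and 0.0756), and Bmal1 also without smoke replicate 2 (0.0604). Npas2 (-0.006 ± 0.31) and Bhlhe40 (0.50 ± 0.31) were not called. Of the 13 other clock genes, 4 were called higher and 2 lower by their brightest probe, beside 29.9% and 9.97% of all features. The count changed when single arrays were left out. Among the 4, the second probe was at -1.79 against 1.05 for Usp2, 0.29 against 2.67 for Nampt and 0.67 against 1.55 for Btrc.

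MSC-treated lung differed from smoke-exposed lung in 5 members, 3 higher and 2 lower, where 43.3% of all features were called higher and 16.4% lower. Per2 was lower with MSC: its mean was -6.15 against -2.80, a difference of -3.35 ± 0.85 (limma adjusted p = 0.0110), and because it was not well above background in either MSC sample the bound is at least 4.44-fold lower on the percentile scale. Its signals were 435 and 412 after smoke and 2.08 and 6.04 with MSC. Without MSC replicate 1 the adjusted p was 0.0713, and with normexp background correction, which adds an offset of 50 to every signal, the difference was -0.44 (0.204). Cry1 fell by 1.39 ± 0.39 on the log2 scale (limma adjusted p = 0.0163), which was lost without smoke replicate 2 (0.0942) or MSC replicate 2 (0.0663). On the spike-in scale both were lower too, at -7.37 and -5.41.

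Clock was higher with MSC by 1.88 ± 0.34 (3.68-fold, limma adjusted p = 0.00240), Cry2 by 1.60 ± 0.31 (0.00347) and Per3 by 1.49 ± 0.34 (0.00689). All 3 turned on the spike-in scale, to -2.14, -2.42 and -2.53. They stood 1.14, 0.86 and 0.75 above the median of all features. Quantile normalization gave Clock 0.63 (limma adjusted p = 0.116), and cyclic loess gave Clock 0.65 (0.143) and Per3 0.87 (0.0539). For Clock, Cry2 and Per3 the order of the 4 group means was the reverse of the order of array brightness, as for 29.2% of all features. For Per2 and Cry1 it was the same as that of brightness, as for 9.79%. Bmal1 and Npas2, of the other clock genes, also had the order of brightness, and Nfil3 and Bhlhe40 had neither order. The part of brightness in these differences was not tested.

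Nr1d1 (-0.92 ± 0.94), Dbp (-0.87 ± 0.91), Nr1d2 (0.82 ± 0.58), Per1 (0.48 ± 0.53, and -0.04 by its second probe) and Tef (0.25 ± 0.36) were not called with MSC. The median of the 10 members was 0.36, below the 0.74 of all features. Bmal1 fell by 2.94 ± 0.38 on the log2 scale (limma adjusted p = 0.000644), Nfil3 fell by 1.86 ± 0.33 (0.00240) and Npas2 fell by 1.27 ± 0.31 (0.00994), all 3 lower on the spike-in scale as well, at -6.96, -5.88 and -5.29. The call of Npas2 was lost without smoke replicate 2 (0.0665) and that of Nfil3 with normexp correction (-0.50, 0.0573). Bmal1 was called in all 22 alternatives. Bhlhe40 was at 0.22 ± 0.31. Of the 13 other clock genes, 4 were called higher and 4 lower by their brightest probe, beside 43.3% and 16.4% of all features. The count changed when single arrays were left out. Second probes differed in sign for Usp2 (-2.69 against 1.67), Nampt (-0.72 against 3.62) and Wee1 (0.38 against -1.67). Those of Btrc (0.89 against 2.15) and Csnk1d (1.75 against 0.05) had the same sign. These genes were named after their values were seen.

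**Figure D4:**
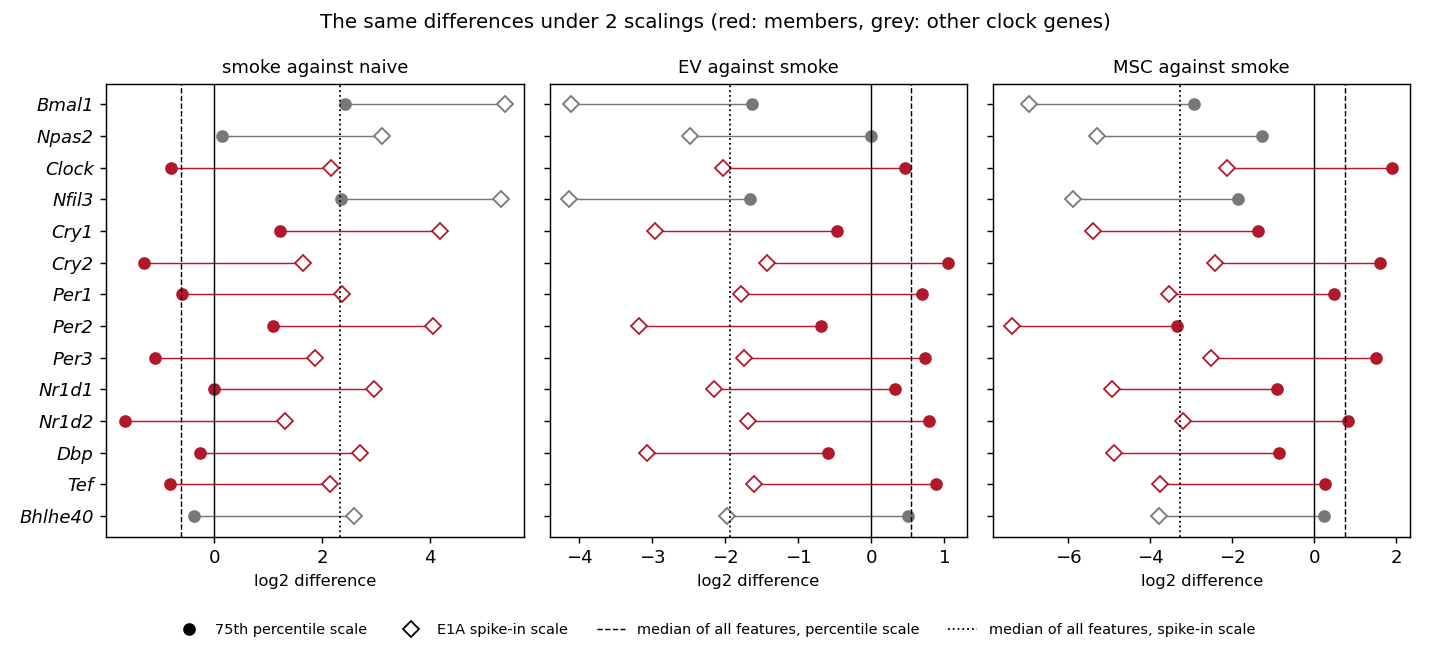
The same log2 differences (x axis) on the 75th percentile scale (filled circles) and on the E1A spike-in scale (open diamonds) for the members (red) and 4 other clock genes (grey); dashed and dotted lines are the medians of all features on the 2 scales. The shift is the same for every gene within a comparison. Bmal1, Nfil3, Npas2, Cry1 and Per2 lie on the same side of 0 on both scales in every comparison shown. Cry2, Per3, Nr1d2, Clock, Tef, Per1 and Bhlhe40 change side in each, Dbp only for smoke against naive and Nr1d1 only for EV against smoke.

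With spike-in scaling all 10 members were called higher in smoke than in naive lung (82.7% of features were higher and 0.514% lower), and all 10 were called lower with EV (0.741% higher, 73.3% lower) and with MSC (0.785% higher, 88% lower) than with smoke. The members' medians were 2.27, -1.91 and -3.66, beside -0.62 to 0.74 for all features on the percentile scale and 2.34, -1.94 and -3.28 on the spike-in scale. Cry1 and Per2 had the same sign on both scales in these 3 comparisons, and Per2 was called on the percentile scale with MSC alone.

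The treatments were set against each other directly, which tests the difference of their effects against smoke. Clock was lower with EV than with MSC by a log2 difference of -1.42 ± 0.34 (2.68-fold, limma adjusted p = 0.0486), the only member called, where 1.8% of features were higher and 5.35% lower. On the spike-in scale the difference was 0.11 (limma adjusted p = 0.852). Without any 1 of the 6 smoke-exposed arrays Clock was not called, but fewer of all features were called then too, so the loss was not particular to Clock. It was called in 2 of the 21 alternatives run for it. Per2 was higher with EV by 2.65 ± 0.85 (at least 2.74-fold, limma adjusted p = 0.0871) and Cry1 by 0.91 ± 0.39 (0.157), both short of the threshold and both higher on the spike-in scale. Bmal1 (1.31 ± 0.38, 0.0715) and Npas2 (1.26 ± 0.31, 0.0529) were likewise higher with EV without passing it. For Cry2, called with both treatments against smoke, EV minus MSC was -0.55 with a 95% interval from -1.27 to 0.18.

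Against naive lung no member was called after either treatment. With EV, limma called 0 of 10 members (0 at an unadjusted p under 0.05), in a comparison where it called 0% of features higher and 0% lower and 4.25% had an unadjusted p under 0.05. With MSC it called 0 of 10 (2 at an unadjusted p under 0.05, Clock and Per2), where 0% of features were called higher and 0.00399% lower and 21.9% had an unadjusted p under 0.05. Clock differed from naive by 1.09 ± 0.34 with MSC (limma adjusted p = 0.146) and Per2 by -2.25 ± 0.85 (0.188). Cry2, lowest after smoke, differed from naive by -0.25 with EV (95% interval -0.98 to 0.47) and by 0.29 with MSC (-0.43 to 1.02). Bmal1 differed by 0.80 with EV (-0.09 to 1.69) and by -0.51 with MSC (-1.40 to 0.37), and Nfil3 by 0.70 (-0.08 to 1.47) and 0.50 (-0.27 to 1.27), intervals that hold both no difference and differences of more than 1.

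The named genes whose levels over the 8 arrays were most like those of Dbp, by Pearson's r among 12712 genes, were Ang (0.95), Cyc1 (0.95), Srpx (0.94), Ang2 (0.94) and Tf (0.93), all well above background on 8 arrays. Those most like Clock were Tulp4 (0.99), Or13n4b (0.99), Map2k4 (0.98), Ppcdc (0.98) and Zfp52 (0.98), of which Or13n4b, an olfactory receptor gene, was well above background on 7 arrays. These are descriptions over arrays that share the differences between groups and in brightness.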

How the data were processed

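Each of the 8 arrays held 62976 spots, 4259 of them controls. The deposited intensity values of design 074036 were written by Agilent Feature Extraction 10.7.3.1, per the file headers: a processed signal, background-subtracted and detrended over the array, and spot and local background medians. Other steps taken by the authors are not given in the sources used here. The intensities had not been scaled between arrays. The other columns used, per the file headers, mark spots well above background, saturated (none) or outlying. Arrays have no read depth; their number, 2 a group, limits precision.

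Outlier spots were dropped and spots of a probe averaged. Levels are the log2 processed signal less the 75th percentile over all non-control spots of that array. Accessions were matched to RefSeq symbols (GRCr8): 21215 of 45598 probes matched. Of several kept probes of a gene the brightest was used, giving 25087 features, on which limma 3.58.1 (R 4.3.3) was fitted with 4 group means over 8 arrays, 2-sided, with Benjamini-Hochberg adjustment over all features at 0.05. Replicates correlated at 0.949 to 0.972 across probes, and 48.1% to 71.3% of probes were well above background. The groups lie in separate columns of 1 slide and cannot be told apart from them. The spike-in scale uses 7 of the 10 E1A probes, whose log2 signals were averaged and subtracted. Where neither sample of a group was well above background, a fold is a lower bound, taken on each array against the lowest signal well above background, or the probe's own signal where that is higher.

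All 10 members were described for smoke against naive lung and for each treatment against smoke. The other comparisons are given by counts of members, with values for some of them. Of the other clock genes, Bmal1, Npas2, Bhlhe40, Bhlhe41, Nfil3, Hlf, Ciart and Rora were chosen whatever their values. The 5 genes most correlated with Dbp and with Clock were added. A gene that the rule also names is not reported here. The members and lists were chosen with earlier results of these data known. The fit was tested on simulated data. Alternatives were other background corrections, scalings, filters, probe rules and variance settings, a replicate block, and leaving out single arrays. Figures were drawn with matplotlib 3.10.9.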

Additional observations from a re-analysis of the deposited data

Results flagged for a closer look

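Clock is listed because the difference between the effects of EV and MSC passed the threshold: EV minus MSC was -1.42 (log2, 75th percentile scale; n = 2 and 2; limma adjusted p = 0.0486). Both EV samples lay below both MSC samples, at -5.94 and -5.61 against -4.40 and -4.30. In this comparison the groups did not overlap for 61.3% of all features. The probe was dim, with signals of 9.86 to 13.0 on these 4 arrays, and the difference was 0.11 on the spike-in scale. The call held in 2 of the 21 alternatives, those without either naive array. It was lost with the replicate block (adjusted p = 0.0509 by limma) and without any 1 of the 6 smoke-exposed arrays. Those last fits leave 1 sample in a group and called fewer of all features, so the loss there was not particular to Clock.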

How the results depend on the processing

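Replicate numbers did not pair the samples: deviations of same-numbered samples correlated at -0.15 to 0.14 between groups. With the replicate number as a block, 0 members were called in EV against MSC in place of 1, and no other count of members or other clock genes moved by over 1.5 times. In that comparison 0 members were also called with quantile normalization, cyclic loess, either other choice of probes behind the 75th percentile, no filter on dim probes, the filter on all 8 arrays, averaged probes of a gene, every probe as a feature, the fit of 2 groups, a trended and robust prior and array weights; spike-in scaling gave 6. With no filter on dim probes, the fit of 2 groups and array weights, 0 features of any kind were called, so 0 members followed. The other settings of that list called 1153 to 3078 features, and spike-in scaling 10225, in place of 1793. The percentile with one value per probe was chosen after seeing the data. The filter on all 8 arrays leaves out Clock, Per2 and Nr1d1.

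Where 4 members were called for smoke against naive, quantile normalization, cyclic loess, both other percentiles and the fit of 2 groups gave 2, no filter on dim probes gave 1 and spike-in scaling 10; of the other clock genes, 7 became 4 with quantile normalization and cyclic loess and 12 with spike-ins. For EV against smoke, 1 member became 0 with quantile normalization, cyclic loess, the percentile with one value per probe and no filter, 2 with normexp and the fit of 2 groups, 3 with array weights and 10 with spike-ins, and 6 other clock genes became 11 with spike-ins. For MSC against smoke, 5 members became 3 with cyclic loess and the filter on all 8 arrays and 10 with spike-ins. For MSC against naive, spike-ins gave 1 in place of 0. Over all features, the settings named called 9211 to 20869 in place of 11925 for smoke against naive. For EV against smoke they called 6877 to 18573 in place of 9996, and for MSC against smoke 11410 to 22265 in place of 14982. Spike-ins called 1633 in place of 1 for MSC against naive.

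Leaving out 1 array at a time changed the counts of members called for smoke against naive, EV against smoke and EV against MSC. It also changed those of other clock genes for smoke against naive and for each treatment against smoke. These fits leave 1 sample in a group, and the number of all features called moved too, so the changes are not particular to clock genes. Single genes that turned when 1 array was left out ranged, for smoke against naive, from -1.45 to 0.25 (Per1), -0.27 to 2.46 (Per2), -1.42 to 1.43 (Nr1d1), -1.60 to 1.08 (Dbp) and -0.080 to 0.38 (Npas2); for EV against smoke, from -0.16 to 0.81 (Nr1d1), -1.35 to 0.17 (Dbp) and -0.24 to 0.22 (Npas2); and for MSC against smoke, from -0.038 to 0.53 (Tef).

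Spike-in scaling turned, for smoke against naive, Clock (2.17), Per1 (2.37), Per3 (1.87), Cry2 (1.66), Nr1d2 (1.32), Dbp (2.70), Tef (2.15) and Bhlhe40 (2.59); for EV against smoke, Clock (-2.03), Per1 (-1.79), Per3 (-1.75), Cry2 (-1.43), Nr1d1 (-2.16), Nr1d2 (-1.69), Tef (-1.60) and Bhlhe40 (-1.99); for MSC against smoke, Clock (-2.14), Per1 (-3.54), Per3 (-2.53), Cry2 (-2.42), Nr1d2 (-3.21), Tef (-3.77) and Bhlhe40 (-3.80); and Clock in EV against MSC (0.11). A common shift of each array accounts for these by construction.

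Small differences turned elsewhere, and the cause was not tested. For smoke against naive, quantile normalization gave Clock 0.083 and Dbp 0.031, cyclic loess gave Per1 0.11 and Dbp 0.13, normexp gave Per1 0.10, Nr1d1 -0.31 and Dbp 0.27, the mean of probes gave Per1 0.24, and the percentile over probes detected on all arrays gave Dbp 0.044. For EV against smoke, quantile normalization gave Clock -0.37, cyclic loess gave Clock -0.25 and Nr1d1 -0.10, and the mean of probes gave Per1 -0.016. For MSC against smoke, quantile normalization gave Per1 -0.29, Tef -0.26 and Bhlhe40 -0.21, cyclic loess -0.28, -0.31 and -0.22 for the same genes, and normexp gave Per1 -0.62, Nr1d1 0.18, Nr1d2 -0.16, Tef -0.74 and Bhlhe40 -0.057. Tef and Bhlhe40 were at -0.099 and -0.12 with the percentile over detected probes and at -0.16 and -0.18 with one value per probe. Low signal limits Clock, Per2 and Nr1d1, which were not well above background on every array.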
